A study of Mus musculus with 8 samples.

Results

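MicroRNA-132 and microRNA-212 sites were examined in a FLAG-Ago HITS-CLIP study of mouse forebrain, a method in which RNA crosslinked to tagged Argonaute is immunoprecipitated and sequenced. The sites are the 3' UTR clusters of reads in the deposited targets table whose miR-132-3p column counts at least 1 seed match. There are 698 of them among 9284 clusters that name a 3' UTR gene, or 7.52% (95% Wilson interval 6.999 to 8.07), and among 70142 clusters in the whole table. The choice used the annotation and the seed match and not the number of reads.

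The 5 Flag-Ago2 libraries came from mice labelled Camk2a-cre; Rosa-Stopfl/fl-Flag-Ago2, and the 3 control libraries from Rosa-Stopfl/fl-Flag-Ago2 mice, which carry the same tagged allele behind a stop cassette but no Cre. Mice of both groups were 8 to 14 weeks old, and tissue was irradiated 3 times with 400 mJ/cm2. Expression of the tagged protein depends on Cre under the Camk2a promoter, so it reports on the cells in which that promoter has been active. The table gives 1 read count per cluster for the whole study. It has 0 columns of a single library, so Flag-Ago2 and control mice cannot be compared, no value has a replicate spread, and no test between groups was made. Intervals below cover counting error only. As a check of the labelled cells, 3' UTR clusters were present in 8 of 12 excitatory neuron markers, 5 of 12 interneuron, 10 of 12 astrocyte, 7 of 12 oligodendrocyte, 3 of 12 microglial and 4 of 12 endothelial and mural markers. Camk2a had 5 clusters with 292 reads, and the astrocyte marker Slc1a2 had 16 with 928, the most of these markers. Marker transcripts of other cell types were thus among the clusters, and their part in the results was not tested.

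An Argonaute protein loaded with a miRNA finds its targets mainly by pairing of the miRNA seed, the bases near its 5' end, with the 3' UTR of an mRNA. MiR-132 and miR-212 are made from 1 locus, whose transcription in neurons is induced by activity and BDNF through the factor CREB. They are known for effects on dendrite and spine growth and on plasticity. Matches are graded by length: a 6mer pairs with miRNA bases 2 to 7, a 7mer-m8 also with base 8, a 7mer-A1 has an A opposite base 1, and an 8mer has both additions.

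The mature sequences from RefSeq (GRCm38.p6) are shown because they decide what the column can tell apart. Capitals mark the seed, bases 2 to 8.
miR-132-3p: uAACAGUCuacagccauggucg
miR-212-3p: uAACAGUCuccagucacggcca
They lie on the plus strand at chr11:75173723-75173744 and chr11:75173443-75173464. The pair has the same base at 17 of 22 positions and is identical over the first 9. The substitutions from miR-132-3p to miR-212-3p, counted from 1 at the 5′ end, fall at positions 10, 14, 17, 20 and 22. Their columns in the table were identical in every cluster and no other of the 1281 miRNA columns equalled them, so the 2 miRNAs are treated as 1 family. The deposited count equalled the number of 6mer matches, ACTGTT on the RNA strand, in 8333 of the 8333 3' UTR clusters for which every base was known.

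Of the 8 deepest clusters with an 8mer considered for printing, 7 have it in an annotated 3' UTR, and these sites show what the strongest match looks like there. Each line holds 30 bases of the RNA strand in mm10, read from GENCODE M21 transcripts, with the 8mer in capitals.
Pom121: gaaagggttggtggctcaaGACTGTTAgcc
Fam91a1: cactttataggctgtagatGACTGTTAcgt
Upf1: ggtttgtctctagagacctGACTGTTAaac
Kif21a: gtgtttgcacacattggtaGACTGTTAtca
Mdm4: ccatggctttagatactgtGACTGTTAttt
Rad54l2: gtgcactgtggtgtaaaatGACTGTTAtct
Lsm11: tgggctgcattttgacataGACTGTTAggc
The Pom121 site lies at chr5:135377451-135377480 on the minus strand, in a cluster of 413 reads. The Fam91a1 site, at chr15:58455189-58455218 on the plus strand, lies in a cluster of 364 reads, and the Upf1 site, at chr8:70331846-70331875 on the minus strand, in one of 346. Pom121 encodes a nuclear pore protein, Fam91a1 a protein of vesicle trafficking, and Upf1 the helicase of nonsense-mediated decay. The kinesin gene Kif21a followed with 207 reads (chr15:90933573-90933602, minus strand), and Mdm4, an inhibitor of p53, with 131 (chr1:132988330-132988359, minus strand). Rad54l2, a helicase, had 124 reads (chr9:106688602-106688631, minus strand) and Lsm11, a subunit of the U7 particle that processes histone mRNAs, had 112 (chr11:45932532-45932561, minus strand). The remaining cluster, in Enc1, an actin-binding kelch protein of neurons, had 103 reads. Its table row also names CDS and intron, and its 8mer lies in the coding sequence in GENCODE M21, so it is not printed. Of the 743 matches in the 698 clusters, 721 could be located, in 677 clusters. Of the 721, 680 or 94.3% lay in an annotated 3' UTR, 26 in CDS and 15 in other exons.

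Matches that pair with miRNA base 8, the 8mer and 7mer-m8, were more frequent inside clusters than outside, and the 7mer-A1 and 6mer were not. In the annotated 3' UTRs of genes with a cluster, clusters touched 10.99% of all positions. They touched 65 of the 215 8mers, or 30.2% (Wilson interval 24.5 to 36.7), and 153 of the 900 7mer-m8 matches, or 17.0% (14.7 to 19.6). They touched 80 of the 848 7mer-A1 matches, or 9.43% (7.65 to 11.6), and 357 of the 3271 plain 6mers, or 10.9% (9.89 to 12.03). As densities, 8mers were 3.51 times as frequent per kb inside clusters as in the rest of the same 3' UTRs (95% exact interval 2.58 to 4.73). The ratio was 1.66 (1.38 to 1.98) for 7mer-m8, 0.844 (0.662 to 1.063) for 7mer-A1, and 0.992 (0.887 to 1.11) for 6mer. The pooled ratio over all 4 types, 1.16 (1.07 to 1.26), joins these unlike values. The rest of a 3' UTR also holds parts that these cells may not express and sites with fewer than the 10 reads a cluster needs.

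The same grading was made for miR-128 and miR-29, whose matches are frequent in these clusters. Their 8mers had ratios of 2.70 (2.18 to 3.33) and 3.41 (2.59 to 4.45), with intervals that overlap that of the miR-132/miR-212 8mer. Their other matches differed from those of miR-132/miR-212 in part. The 7mer-m8 had a ratio of 1.64 (1.44 to 1.87) for miR-128, close to that of miR-132/miR-212, and 2.37 (2.06 to 2.73) for miR-29, with an interval above it. For the short matches, the plain 6mer had a ratio of 1.71 (1.56 to 1.88) for miR-128 and 1.64 (1.45 to 1.84) for miR-29, and the 7mer-A1 had 2.14 (1.84 to 2.48) and 1.86 (1.41 to 2.41). None of the 4 intervals of the 6mer and 7mer-A1 reaches down to that of the same type for miR-132/miR-212. However, the miR-128 7mer-A1, ACTGTGA, is also the 7mer-m8 of miR-27, and the miR-128 8mer holds it too. The short miR-128 matches also include the word GACTGTG, which pairs with bases 3 to 8 of miR-132/miR-212 and had a ratio of 2.45 (2.15 to 2.78). The part of miR-27 and of this word in these miR-128 ratios was not tested. This is a comparison of counting intervals within 1 pooled table, not a test over samples.

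**Figure D1:**
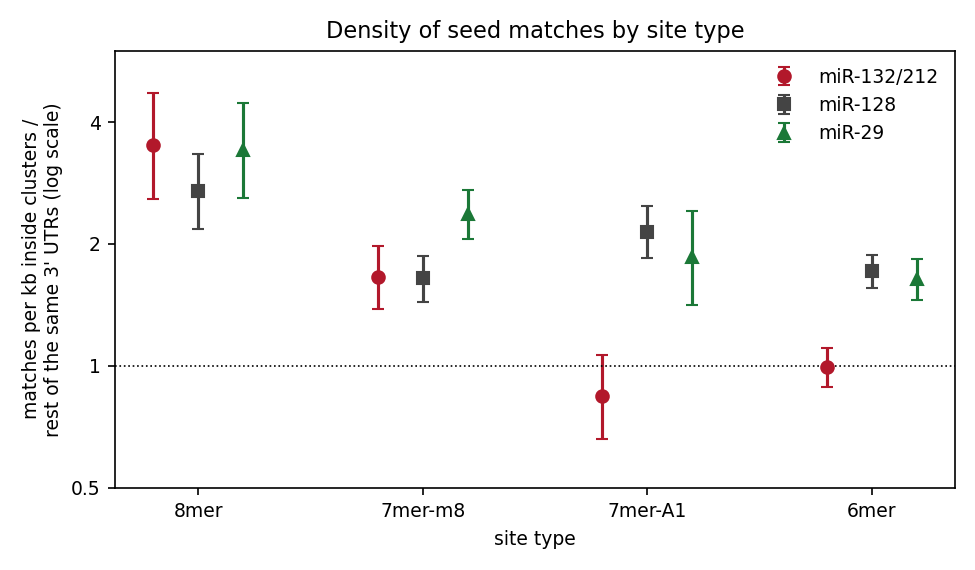
Ratio of matches per kb inside 3' UTR clusters to matches per kb in the rest of the same 3' UTRs (log axis), by site type, for miR-132/miR-212, miR-128 and miR-29; bars are 95% exact intervals from the counts. For miR-132/miR-212 the 8mer is at 3.51 and the 6mer at 0.992, while the 6mers of miR-128 and miR-29 are at 1.71 and 1.64.

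The base before the 6mer separated the matches. Preceded by G, which pairs with miRNA base 8, ACTGTT had a ratio of 1.98 (1.70 to 2.29), against 1.03 (0.869 to 1.22) after A, 0.998 (0.842 to 1.18) after C and 0.849 (0.698 to 1.02) after T. However, GACTGT followed by a base other than T, which is no match of miR-132/miR-212 by the 6mer definition and pairs only with bases 3 to 8, had a ratio of 2.03 (1.86 to 2.22). By its last base, the ratio was 2.22 (1.89 to 2.61) for GACTGTA, 1.302 (1.07 to 1.57) for GACTGTC and 2.45 (2.15 to 2.78) for GACTGTG. The word ending in A also lies in the complement of the 5' adapter of the Illumina small RNA kit, and the word ending in G holds the miR-128 6mer. The part of either in the values for the miR-132/miR-212 7mer-m8 and 8mer was not tested.

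Where G came before the match, the ratio also differed with the base after it. GACTGTT had a ratio of 3.51 (2.58 to 4.73) before A, 2.41 (1.80 to 3.18) before G, 1.49 (1.03 to 2.09) before C and 1.24 (0.892 to 1.69) before T. The interval for A overlaps that for G and lies above those for C and T. Without the preceding G, the ratio was 0.844 (0.662 to 1.063) before A and 1.24 (1.02 to 1.49) before G, with intervals that overlap. GACTGT with another base than T showed no such step, with 1.98 (1.67 to 2.35) where the next base was A and 2.05 (1.85 to 2.27) where it was not.

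Matches with the preceding G also lay nearer to the cluster centres. Over 7689 3' UTR clusters with known sequence for 150 bases on each side, 8mers reached 0.0936 per kb (95% exact Poisson interval 0.0555 to 0.148) in the 25 bases downstream of the centre, from 18 matches. In the 25 bases upstream they were at 0.0468 per kb (0.0214 to 0.0889), from 9 matches. The bin from 50 to 75 bases downstream had the same value, also from 9 matches, so for 8mers only the bin just downstream of the centre stood higher. In the 3 outermost bins on each side they were between 0.0104 and 0.0260 per kb, the highest of which (0.00845 to 0.0607) overlaps both central values. Matches of the 7mer-m8 type reached 0.161 per kb (0.110 to 0.229) in the 25 bases upstream and 0.156 per kb downstream, against 0.0312 to 0.109 in the 3 outermost bins on each side, the highest of which (0.0676 to 0.167) overlaps the central values. The 6mer had no such peak: it was at 0.307 per kb upstream and 0.218 downstream of the centre, within a range of 0.187 to 0.307 over all bins. The bases 3 to 8 match without the 6mer had the sharpest rise, to 0.718 and 0.697 per kb beside the centre, against 0.182 to 0.291 in the 3 outermost bins on each side. Among the matches of the 698 clusters, 45.7% of 8mers and 47.3% of 7mer-m8 lay within 25 bases of the centre, against 29.1% of 7mer-A1 and 29.2% of 6mers.

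**Figure D2:**
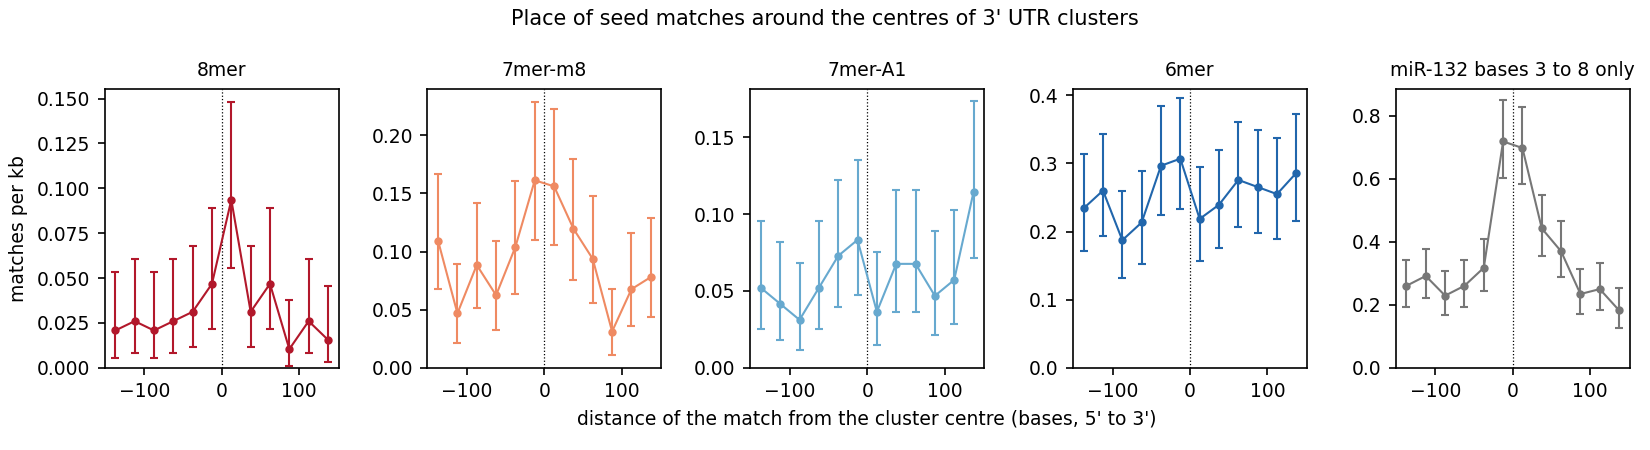
Matches per kb in bins of 25 bases around the centres of 7689 3' UTR clusters, for the 4 site types and for matches to bases 3 to 8 that lack the 6mer; bars are 95% Poisson intervals and each panel has its own scale. The 8mer peaks at 0.0936 per kb downstream of the centre and the 7mer-m8 at 0.161 upstream, while the 6mer stays between 0.187 and 0.307.

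Of the 698 clusters, 675 held a match whose type could be read, and the other 23 ran beyond the annotated exons used here. The longest match was an 8mer in 67 clusters, or 9.93% (7.89 to 12.4), a 7mer-m8 in 162 or 24%, a 7mer-A1 in 82 or 12.1%, and a plain 6mer in 364 or 53.9% (50.2 to 57.7). A match longer than 6 bases was thus present in 46.1% (42.3 to 49.8). The 229 clusters with an 8mer or 7mer-m8 belong to 226 host genes.

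Depth in the 698 clusters ran from 10 to 1620 reads around a median of 22 (95% order-statistic interval 21 to 24), against 10 to 5730 around a median of 21 (21 to 22) in the 8586 other 3' UTR clusters. The quartiles, 14 and 36 reads against 14 and 34, show how far the distributions overlap. The clusters with a match were wider, with a median of 166 bases (159 to 175) against 143 (141 to 145). With the others weighted to the same widths, their median was 23 reads. The small difference then changed sign to -1, with a range of -2 to 1 that covers either sign. Among the narrowest clusters, up to 120 bases, 5.74% of clusters held a match and the median was 19 reads in both kinds. Among the widest, from 227 bases, 12.1% held one, with medians of 30 reads in clusters with a match and 32 in the others. Over 6 classes of depth, matches per kb lay between 0.445 in clusters of 30 to 49 reads and 0.509 in clusters of 10 to 14 reads, with 0.483 in clusters of 100 or more.

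Clusters of 50 or more reads were more frequent among those with a match to base 8 than among clusters with no match. Their share was 23.9% (15.3 to 35.3) with an 8mer and 19.8% (14.4 to 26.6) with a 7mer-m8, against 11.8% (11.1 to 12.4) of the other 3' UTR clusters. With the others weighted to the widths of all clusters with a match, their share was 14.1%, just below the 7mer-m8 interval. With a 7mer-A1 the share was 14.6% (8.57 to 23.9) and with a 6mer 12.1% (9.13 to 15.8), and both intervals include either value of the other clusters. The interval of the 8mer overlaps those of the 3 shorter types.

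At 100 or more reads the 8mer stood apart from the 6mer. Of the clusters with an 8mer, 8 of 67, or 11.9% (6.18 to 21.8), were that deep, against 8 of 364 with a 6mer, or 2.198% (1.12 to 4.28). It was 8 of 162 with a 7mer-m8, or 4.94% (2.52 to 9.44), 1 of 82 with a 7mer-A1, or 1.22% (0.216 to 6.59), and 2.61% of the other clusters. Weighted to the widths of all clusters with a match, the others had 3.16%. The 7mer-m8 interval overlaps all of these. The medians were close, with 24 reads (21 to 33) for the 8mer, 23.5 (20 to 28) for the 7mer-m8, 21.5 (19 to 27) for the 7mer-A1 and 22 (20 to 24) for the 6mer. Median width was 142 bases (125 to 187) with an 8mer and 170 (160 to 179) with a 6mer.

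**Figure D3:**
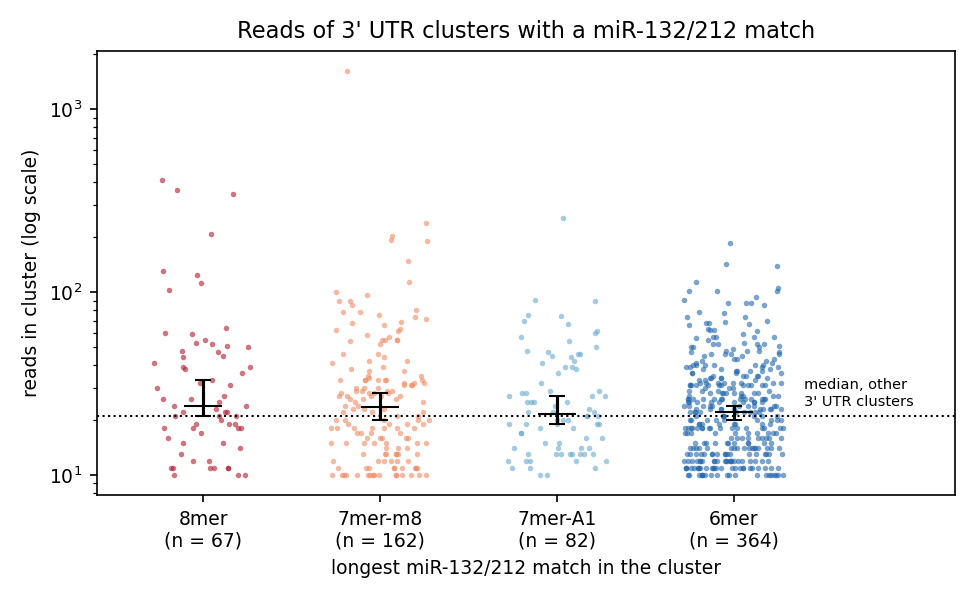
Reads per cluster (log axis) for the 675 3' UTR clusters with a typed miR-132/miR-212 match, by the longest match; each point is 1 cluster, black bars are the median with its 95% order-statistic interval, and the dotted line is the median of 21 reads of the other 3' UTR clusters. The 4 medians lie between 21.5 and 24, and the 8mer column holds 8 of 67 clusters at 100 reads or more.

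The deepest cluster was in Sft2d2, a gene of vesicle transport, with 1620 reads over 273 bases at chr1:165176192-165176464 on the minus strand. It holds 1 7mer-m8 match, and the next cluster, in Pom121, had 413. A cluster with a match but no annotation had the same count of 1620 reads, and whether both hold the same reads was not tested. After Fam91a1 and Upf1 came Setd7, a lysine methyltransferase, with 255 reads, and Rab15, an endosomal GTPase, with 240. Kif21a with 207 was followed by P4ha1, a subunit of the collagen prolyl hydroxylase, with 202. Mepce, the capping enzyme of 7SK RNA, had 194 and Nap1l1, a histone chaperone, had 191. Among these 10 genes the match was an 8mer in 4, a 7mer-m8 in 5 and a 7mer-A1 in Setd7, and a plain 6mer in 0. The deepest cluster with a plain 6mer was in Synj2, a phosphoinositide phosphatase, with 185 reads. The 4 windows below, chosen after their values were seen, set 1 site of each shorter type beside the 8mer of Foxo3 described further on; capitals mark the match.
Sft2d2, 7mer-m8: ccaacctctactccaggctGACTGTTggga
Setd7, 7mer-A1: ttgcttagtcataggttgcaACTGTTAaag
Synj2, 6mer: aggaactatacaagtactgcACTGTTgaag
Foxo3, 8mer: gcttccctaacccagcagaGACTGTTAgca
They lie at chr1:165176342-165176371, chr3:51518387-51518416 and chr10:42186159-42186188 on the minus strand for Sft2d2, Setd7 and Foxo3, and at chr17:6038820-6038849 on the plus strand for Synj2.

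Most clusters held 1 match: 657 had 1, 38 had 2, 2 had 3 and 1 had 4, for 743 matches in all. Just outside the rule, 110 of 7492 other clusters with known flanks, or 1.47% (1.22 to 1.77), had a match within the 26 bases beyond either end. The cluster with 4 matches, all 8mers, was in Tlnrd1, a talin-related gene, at chr7:83881169-83881397 on the minus strand with 27 reads. Its matches follow each other every 16 bases in a short tandem repeat, of which 1 window is shown here because it holds 2 of them, the second in capitals.
Tlnrd1: gaggactgttagtggggagGACTGTTAgtg
H2afz, a histone variant gene, held 3 matches in a cluster of 22 reads, namely a pair of 7mer-m8 matches and a 6mer. Enc1 held an 8mer and a 6mer 41 bases apart, both in coding sequence, in its cluster of 103 reads, and Pip4k2c, a phosphoinositide kinase gene, held 7mer-m8 matches 10 bases apart in a cluster of 97. Over the 44 neighbouring pairs in all such clusters the spacing ran from 8 to 260 bases with a median of 41, and 21 pairs were 8 to 40 bases apart.

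The clusters named 669 host genes of the 4863 with any 3' UTR cluster, or 13.8% (12.8 to 14.8), and 7 clusters named more than 1 gene. A single cluster with a match was the rule, in 627 of the 669. Enah, a regulator of actin, had 4 of its 11 3' UTR clusters with a match, all plain 6mers with 10 to 27 reads. Dclk1, a doublecortin-like kinase, had 3 of 10 with 138 reads together, and Arhgef12, a guanine nucleotide exchange factor, 3 of 6 with 68. Atxn1 had 3 of 5 with 48 reads and Snhg14, a long non-coding transcript that runs opposite Ube3a, 3 of 13 with 46, of which 1 cluster also names Ipw. The share of genes that host a match was 8.27% with 1 cluster, 16.6% with 2 to 3 and 31.7% with 4 or more. Counts in the gene lists below are therefore to be read against the number of clusters.

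Most reported targets of miR-132/miR-212 had no match in a cluster, and the interval of their share includes that of all genes. Of 28 genes on a hand-made list of reported targets, all 28 had a 6mer or longer match in the annotated 3' UTR and 15 had a 3' UTR cluster, but the match lay in a cluster in 3. Foxo3, a transcription factor of stress responses, had an 8mer in a cluster of 33 reads, 1 of its 4 matches. The 3 of 15 genes make 20% (7.05 to 45.2), against 13.8% of all genes with a 3' UTR cluster, and their 3 of 45 clusters 6.67%, against 7.52% of all 3' UTR clusters.

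Other well-known members of the list were covered elsewhere in the 3' UTR or not at all. Arhgap32, a GTPase-activating protein, had 3 clusters with 113 reads and 0 of its 2 matches in them. Acvr2b, an activin receptor, had 5 clusters with 201 reads, the most on the list, and its 8mer outside them. Sirt1, a deacetylase, had 1 cluster with 15 reads, and Btg2 had 3 with 77, all without a match. Rasa1, a Ras GTPase activator, the splicing regulator Ptbp2 and Ep300, an acetyltransferase, had 0 3' UTR clusters. Of the 12 listed genes with an 8mer in the 3' UTR, only Foxo3 had it in a cluster, but Ep300, Rb1, Itpkb, Foxp2 and Hmga2 among them had 0 3' UTR clusters. Over all genes with a 3' UTR cluster, clusters touched 30.2% of 8mers, a share of sites and not of genes. A site without a cluster had fewer than 10 reads or was not kept, and says nothing on binding below that depth.

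Over all genes with a 3' UTR cluster, 13.8% hosted a match and 4.65% (4.09 to 5.28) an 8mer or 7mer-m8, and the lists are read against these shares. In the list of CREB and BDNF signalling, 4 of the 13 genes with a 3' UTR cluster hosted a match, all plain 6mers, with 52 reads in Rps6ka3, which encodes the kinase RSK2, and 31 in Camk2a. Among regulators of small GTPases it was 5 of 27, led by Arhgef12 with 68 reads, and only the 7mer-m8 in Srgap3 was preceded by G. Among glutamate synapse genes it was 4 of 24, led by the adhesion gene Nlgn2 with 50 reads in a 6mer cluster and by Camk2a. Homer1, a postsynaptic scaffold, had the list's 1 7mer-m8, in a cluster of 10 reads.

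Among voltage-gated ion channels 6 of 24 genes hosted a match, led by the potassium channel gene Kcna4 with 102 reads in 2 clusters, in 1 of which the match lies in coding sequence, and the calcium channel subunit gene Cacna2d1 with 90 in a 7mer-m8 cluster. Chromatin and transcription regulators had 6 of 27, led by Mef2a, an activity-dependent transcription factor, with 123 reads in 2 clusters and the remodeller Chd4 with 85, both with plain 6mers. Arid1a, another remodeller subunit, had the list's 1 7mer-m8, in a cluster of 15 reads. RNA-binding proteins had 10 of 29, the highest share of the 7 functional lists at 34.5% (19.9 to 52.7), with a median of 3 clusters per gene. Celf4 with 73 reads and Qk with 58 in 2 clusters led it with 6mers, and Elavl4 and Tnrc6b were among the 3 genes with 7mer-m8 matches. As a share of the lists' clusters, the range over these 7 lists was 5.41% for glutamate synapse genes to 9.09% for CREB and BDNF signalling, around the 7.52% of all 3' UTR clusters.

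Over the 6 lists of cell type markers, 6 of 37 genes with a 3' UTR cluster hosted a match, or 16.2% (7.65 to 31.1), against 13.8% of all genes, and 6 of 89 clusters, or 6.74%, against 7.52%. Excitatory markers had a match in 2 of 8 genes with a 3' UTR cluster, Camk2a with 31 reads and Neurod2 with 10, and interneuron markers in 2 of 5, Gad1 with 23 and Gad2 with 14. Astrocyte markers had it in 1 of 10, the glutamate transporter gene Slc1a2 with 32 reads, and microglial markers in 1 of 3, Cx3cr1 with 23. Oligodendrocyte markers had it in 0 of 7 and endothelial and mural markers in 0 of 4. None of these marker clusters held an 8mer or 7mer-m8. The numbers are too small to set the cell types apart.

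Matches to other brain-abundant families were common in the same clusters. Of the 698, 585 or 83.8% (80.9 to 86.4) held a match to at least 1 of 28 other families, against 79.8% of the other 3' UTR clusters and 82.7% when these were weighted to the same widths. The 113 clusters with no other family had a median of 19 reads (17 to 23), the same as the 19 of other 3' UTR clusters with none of the families. With another family the medians were 23 reads (21 to 25) and 22 reads. Clusters with and without a miR-132/miR-212 match thus differed by at most 1 read in the median at either state.

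MiR-101 was the family most often found beside miR-132/miR-212, in 26.1% of the clusters (23.0 to 29.5), against 5.90% of the others at the same widths. In 119 of these 182 clusters every miR-101 match overlapped the miR-132/miR-212 match, since a T before ACTGTT makes the miR-101 6mer TACTGT. Without them the share was 9.03%. For miR-30, the share of 7.02% fell to 4.58% without overlapping matches, against 3.71% in the others. Overlap had little part for miR-153, at 6.73% and 6.45% without overlap against 3.99%, and for miR-26, at 8.88% and 8.74% against 6.73%. Lower than in the others at the same widths were miR-9 with 5.01% (3.63 to 6.89) against 7.52% and miR-138 with 3.58% (2.44 to 5.23) against 6.101%. For both, the share in the others lay above the interval. The other 22 families had weighted shares in the others that lay inside the interval, among them miR-128 with 13.04% against 14.9%, miR-124 with 11.03% against 11.8% and let-7/98 with 3.58% against 4.93%. With 28 families compared and no test, single families outside an interval carry little weight.

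**Figure D4:**
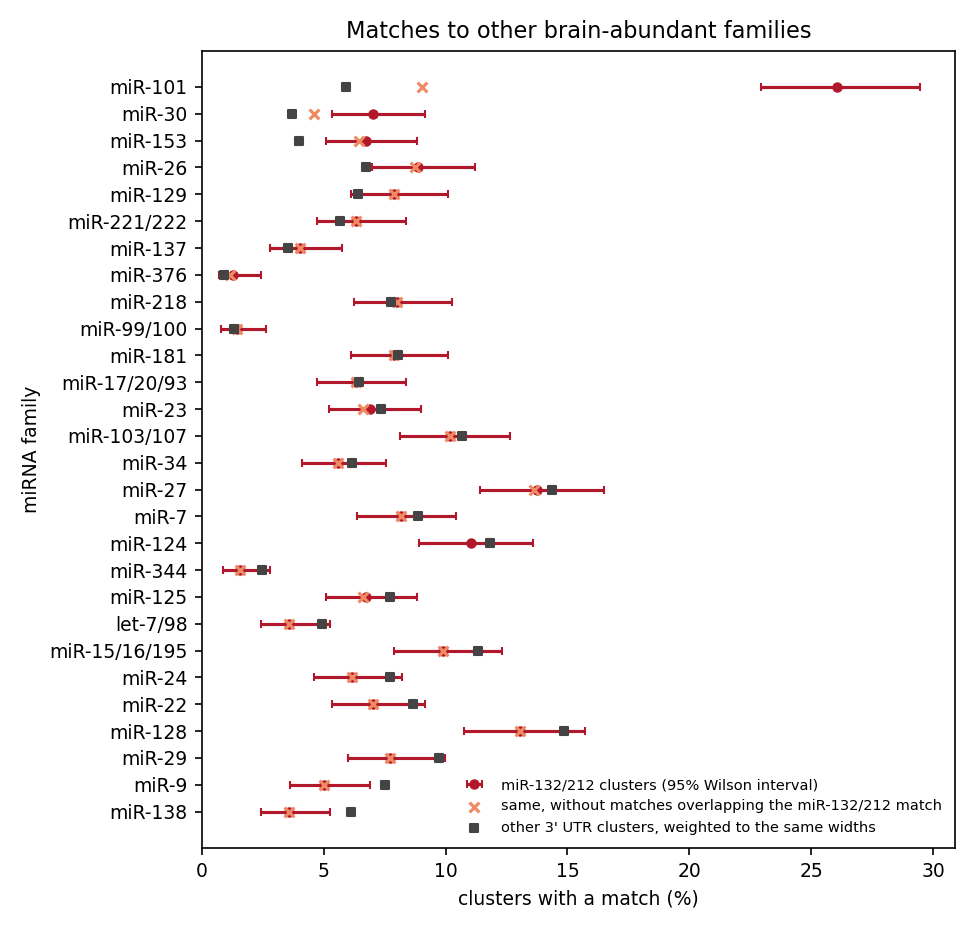
Share of clusters with a match to each of 28 other families, in the 698 miR-132/miR-212 clusters (red, with 95% Wilson interval), in the same clusters without matches that overlap the miR-132/miR-212 match (crosses, not drawn for miR-124, whose sequence was not used here) and in the other 3' UTR clusters weighted to the same widths (squares). MiR-101 stands out at 26.1% and drops to 9.03% without overlapping matches.

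As a whole, the clusters with a match lay somewhat later in the 3' UTR than the others. Of 607 that could be placed, 26.5% (23.2 to 30.2) lay in the last 25% of its length and 25.2% (21.9 to 28.8) in the first 25%, against 20.2% and 30.8% of 7270 other clusters. For the 206 with an 8mer or 7mer-m8 the shares were 23.8% (18.5 to 30.05) and 26.7% (21.1 to 33.1), and both intervals include the values of the other clusters. Of the matches themselves, 25.7% of those inside clusters and 27.6% of those outside lay in the last 25%, and 27.0% and 24.5% in the first. The median length of the 3' UTR was 2812 bases (2610 to 3055) for clusters with a match and 2880 for the others. CDS was named as well in 13.04% (10.7 to 15.7) against 16.2%, an intron in 10.5% against 10.6%, and a circRNA in 4.44% against 4.47%.

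The sequence around the matches was less rich in A and T inside clusters. In the 30 bases on each side, the median share of A and T was 51.7% for 8mers inside clusters and 60% for those outside. It was 53.3% against 55% for 7mer-m8, 56.7% against 63.3% for 7mer-A1 and 55% against 58.3% for 6mers. The same direction held for all 3' UTR bases, with 52.2% inside clusters and 56.5% outside. Whether the difference around the matches is larger than this general one was not tested.

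Pairing beyond the seed could in principle separate the 2 miRNAs. The word TGGC, complementary to bases 13 to 16 of miR-132-3p, started 7 to 13 bases before 13 of 219 matches preceded by G inside clusters, or 5.94% (3.50 to 9.89), against 20 of 897 outside, or 2.23% (1.45 to 3.419). It is present in the Pom121 site above. The corresponding word of miR-212-3p, TGAC, was there before 3.20% (1.56 to 6.45) of the matches inside and 3.34% (2.35 to 4.73) of those outside. That word is present in the Lsm11 site above. Without the preceding G, TGGC was before 2.97% inside and 2.80% outside, and TGAC before 1.14% and 2.47%. The intervals inside and outside do not overlap for TGGC after the preceding G and do overlap for TGAC, but these rest on 13 and 7 matches inside, and the difference between the words was not tested. The table has 0 clusters that overlap the mature miRNAs themselves.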

How the data were processed

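The deposited table gives a whole-number count of reads per cluster and a number of seed matches per cluster and miRNA, per the file headers. The aligner BWA and the mm10 build are named in the submitters' processing notes; for the aligner version, the calling of clusters, the libraries that entered and any removal of duplicates, nothing is stated in the labels or headers. The lowest count in the table is 10. Rows with a 3' UTR gene and a miR-132-3p value of at least 1 were compared with the other 3' UTR rows. Sequence came from GENCODE M21 transcripts placed by their exons on the same build, and 4699 of 4863 genes had an annotated 3' UTR. Overlapping 3' UTRs were merged, and a match was inside when it touched a cluster. The place of each match came from the same annotation. Width weights used 10 classes of the members' widths. Intervals are 95% Wilson for shares, exact binomial for ratios, exact Poisson for densities and order-statistic for medians, and they cover counting error only, since reads were amplified over 15 PCR cycles and the labels name no molecular identifiers. No test was made. Site typing, ratios and weights were tested on simulated data.

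Members and gene lists were chosen with earlier results of these data known. Named are the 10 host genes with the deepest cluster, the 5 with the most clusters, the 5 clusters with the most matches, the 8 deepest with an 8mer outside chromosome 18, reported targets with a match, and the 2 genes with most reads per list; others were chosen after their values were seen. Some genes that this rule names are not reported here. Python 3.11.15, scipy 1.17.1, numpy 2.4.6 and pandas 2.3.3 were used. Other read minimums, widths and region rules were tried.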

Additional observations from a re-analysis of the deposited data

Results flagged for a closer look

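MiR-132/miR-212 matches also lay in clusters that the comparisons above do not use, those outside 3' UTRs. There were 533 in CDS, or 4.11% of the CDS clusters, 25 in 5' UTRs, or 2.80%, and 1745 in introns, or 5.34%. Antisense only clusters had 68, or 3.10%, and clusters with no annotation 432, or 3.57%. Each share was below the 7.52% of 3' UTR clusters. These clusters were picked out because the signal is above 0 in data that were not compared further and that cannot be set against control mice. The deepest of them had 1620 reads in an unannotated cluster, 796 in CDS, 386 in an antisense only cluster, 349 in an intron and 166 in a 5' UTR.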

How the results depend on the processing

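Of 49 alternative values, 38 stayed within the interval of the value reported, 9 lay outside it and 2 changed sign. With clusters of 50 or more reads only, the share of 3' UTR clusters with a match was 9.51%, that with a match longer than 6 bases 57.7% and that with another family 94.3%; the ratio was 2.04 for 7mer-m8 and 0.816 for 6mer, and the difference in median reads was -1. With clusters of 60 to 200 bases, the share with a match was 6.52% and with another family 78.02%, and with 1 cluster per gene the share with a match was 8.32% and with a longer match 50%. Weighted to the same widths, the difference in median reads was -1 against 1 unweighted. The range given for the unweighted difference, 0 to 3, includes 0. So do the range of -2 to 1 for the weighted difference and that of -7 to 7 for clusters of 50 or more reads. These ranges carry only the interval of the clusters with a match and not that of the others. The cause was not tested. Typing clusters from matches in an annotated 3' UTR only, chosen after seeing the data, gave 46.6% of 637 with a match longer than 6 bases, against 46.1%, and 7 of 62 8mer clusters at 100 or more reads, or 11.3%. The 8mer ratio stayed between 3.08 and 4.64 under all 6 alternatives run for it. No paired analysis was possible because the table holds no column for a single library, and no library could be left out for the same reason. Depth limits the counts: 65 8mers inside clusters give an interval of 2.58 to 4.73 on their ratio.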
